A study of Mus musculus with 6 samples.

Results

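The CD28 family of receptors and its ligands were followed here through 9 genes, of 13564 in the normalized table. The members were the rows carrying the symbols Cd28, Icos, Ctla4, Pdcd1 and Btla, which encode receptors, and Cd80, Cd86, Cd274 and Pdcd1lg2, which encode ligands of CD28, CTLA-4 and PD-1, and all 9 passed the filter on low counts. RNA was sequenced from cultures of CD4 T cells that were naive when sorted from lymph nodes of C57BL/6J mice, 3 cultures from Foxo1TKO and 3 from Foxo1Ctrl mice. Foxo1TKO mice carry CD4cre and Foxo1fl/fl, so that the transcription factor Foxo1 is deleted from the stage of thymocytes bearing both CD4 and CD8 onwards, in CD4 and CD8 T cells alike. Foxo1Ctrl mice are Foxo1fl/fl littermates without the Cre recombinase. Both carry the Foxp3-GFP reporter and were young adults. All 6 cultures were kept for 4 days with soluble anti-CD3 antibody at 0.1 µg per ml and 250000 splenocytes of CD3eKO mice, which lack T cells and present the antibody. Whether the splenocytes were removed before RNA was extracted is not stated in the sources used here, so a transcript can stem from either cell source, and fewer cells of a type cannot be told apart from less RNA per cell.

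CD28 gives an activated T cell its costimulatory signal when it binds CD80 or CD86 on an antigen-presenting cell, and ICOS, a relative induced on activation, does so through its own ligand. CTLA-4 binds CD80 and CD86 more tightly than CD28 does and removes them from the presenting cell, whereas PD-1, encoded by Pdcd1, and BTLA recruit phosphatases that dampen the signal of the antigen receptor. PD-1 is engaged by PD-L1 (Cd274), made by many cell types, and PD-L2 (Pdcd1lg2), made by fewer. Activated T cells can carry some of the ligands themselves.

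Libraries held between 14783890 and 19675447 expected counts (n = 3 per genotype), and the first principal component, with 66.4% of the variance, separated the genotypes. Foxo1 itself, the deleted gene, had 85.4, 46.5 and 114.8 normalized counts in Foxo1TKO replicates 1, 2 and 3 and between 1529 and 2285 in the Foxo1Ctrl libraries. The summed level of 10 CD4 T cell markers was 9606 to 11129 TPM (a transcript's share of its library, allowing for length) in Foxo1TKO and 12619 to 14146 TPM in Foxo1Ctrl libraries. B cell transcripts were present as well, at 226.9 to 322.8 TPM in Foxo1TKO and 525.9 to 1049 TPM in Foxo1Ctrl libraries for 12 markers, of which 10 were tested and 5 were lower in Foxo1TKO. The 13 markers of dendritic cells and macrophages summed to 4.64 to 8.45 TPM over all 6 libraries, none of the 4 tested was called (1 at an unadjusted p under 0.05 and 0 called by DESeq2), and C1qa and Fcgr1 were at or under 3 counts in every library. Markers of NK cells summed to at most 3.53 TPM and those of CD8 T cells to at most 8.29 TPM.

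The values tested here are RSEM expected counts, which the authors deposited without normalization, beside a normalized table. They were scaled by the TMM method, and the difference between genotypes was tested with edgeR (quasi-likelihood), with p-values adjusted over 13691 genes after Benjamini and Hochberg. A gene was called when its adjusted p was under 0.05 and its fold change over 1.5. Log2 fold changes are those of Foxo1TKO against Foxo1Ctrl libraries, and normalized counts are given in the order of replicates 1, 2 and 3. Of the 9 members, 7 were called, 3 higher and 4 lower in Foxo1TKO libraries, against 23.0% of all genes tested (11.1% higher and 11.8% lower). The normalized counts of 8 members did not overlap between the genotypes, against 42.7% of all genes. The members were chosen with earlier results of these data known, so both counts are no independent result. The median log2 fold change of all genes was 0.01. The labels do not say that the cultures came from separate mice, so p-values measure the spread between these libraries, which may be technical.

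The 3 receptors of the activating and CTLA-4 branch were all lower in Foxo1TKO libraries. Ctla4 (ENSMUSG00000026011, GRCm38 chromosome 1, 60887000 to 60915832, plus strand) had 329, 339 and 262 normalized counts in the Foxo1TKO libraries and 5957, 5783 and 5114 in the Foxo1Ctrl libraries. The genotypes lay far apart, and within each genotype the libraries lay close together. The fold change was 18.1 (log2 −4.18, standard error 0.18, adjusted p = 3.42e-05 by edgeR's quasi-likelihood test), at rank 95 of 13691 genes counted from the lowest fold change. Cd28 (ENSMUSG00000026012, chromosome 1, 60716800 to 60773359, plus strand) had 5619, 6222 and 7210 normalized counts in Foxo1TKO and 14826, 19910 and 16536 in Foxo1Ctrl libraries. No library crossed over, and by mean count over the 6 libraries Cd28 ranked 222 of the 13691 genes. Its level was 2.69-fold lower in Foxo1TKO libraries (log2 −1.43, standard error 0.17, adjusted p = 0.00119 by edgeR). Icos (ENSMUSG00000026009, chromosome 1, 60977927 to 61000320, plus strand) had 1158, 1642 and 1538 normalized counts in Foxo1TKO and 3891, 5377 and 4220 in Foxo1Ctrl libraries. The change of 3.11-fold (log2 −1.64, standard error 0.20, adjusted p = 0.00114 by edgeR) lay near that of Cd28.

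The inhibitory receptor Pdcd1 went the other way. It is at GRCm38 chromosome 1, 94038305 to 94052553, minus strand (ENSMUSG00000026285), and had 6325, 3559 and 3296 normalized counts in the Foxo1TKO libraries and 162, 127 and 263 in the Foxo1Ctrl libraries. Foxo1TKO replicate 1 stood above the other Foxo1TKO libraries, and even the lowest of these was far above every control. The rise was 23.7-fold (log2 4.57, standard error 0.38, adjusted p = 0.000227 by edgeR), at rank 76 of 13691 genes counted from the highest fold change. Without Foxo1TKO replicate 1 it was 4.20 on the log2 scale. Btla (ENSMUSG00000052013, chromosome 16, 45224315 to 45257670, plus strand), a receptor bound by the TNF receptor family member HVEM, had 974, 1300 and 1359 normalized counts in Foxo1TKO and 1619, 1751 and 1618 in Foxo1Ctrl libraries. Each Foxo1TKO library lay below each control, but the difference did not pass the test (log2 −0.46, standard error 0.17, adjusted p = 0.0869 by edgeR).

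**Figure D1:**
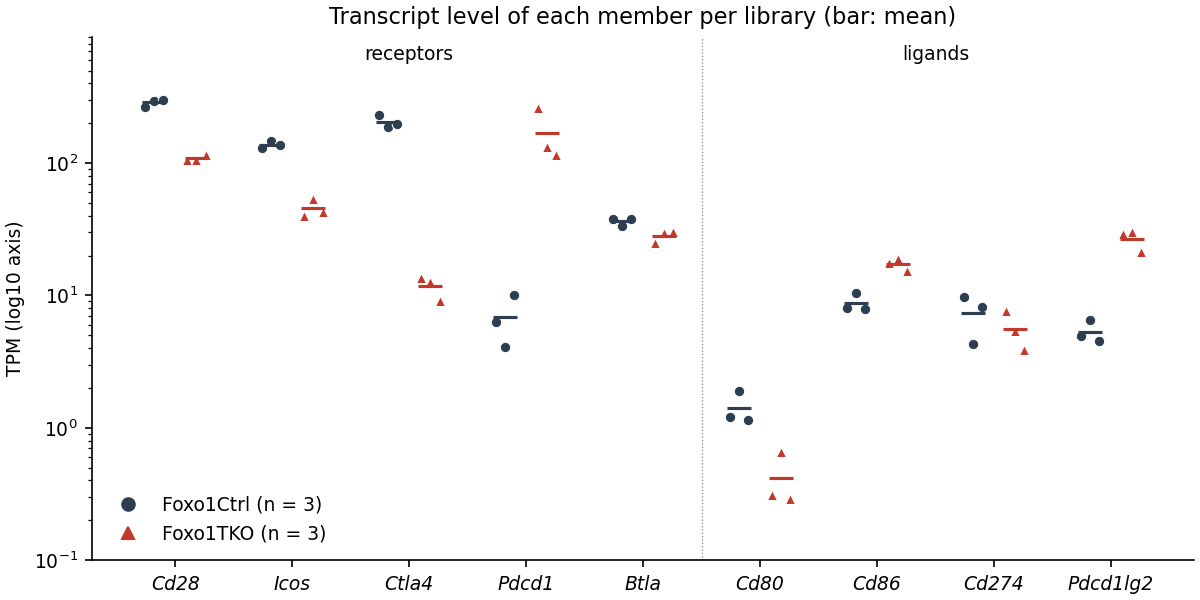
Level of each member in TPM on a log10 axis, 1 point per library (Foxo1Ctrl circles, Foxo1TKO triangles, n = 3 each) with the mean as a bar and a dotted line between receptors and ligands. The genotypes overlap for Cd274 alone, Pdcd1 lies between 115 and 262 TPM in Foxo1TKO and between 4.07 and 10.1 TPM in Foxo1Ctrl libraries, and Cd80 is the lowest member in both.

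The start of transcription of Ctla4 and of Pdcd1, the receptors with the largest fall and the largest rise, and that of Cd80 are shown as the 250 bases before the RefSeq start on GRCm38.p6, read 5′ to 3′ on the strand of the gene. The windows of Ctla4 and Cd80 lie inside the gene spans printed here, because GENCODE M21 has another transcript of each gene that starts further upstream, and the distances between genes given further on are measured from those outer starts. RefSeq promoters were matched for 6 of the 9 members (Ctla4, Pdcd1, Btla, Cd80, Cd274 and Pdcd1lg2). Both strands were searched for GTAAACA, the core that forkhead factors such as Foxo1 bind, and for TGANTCA, the site of AP-1 factors such as Fos and Batf; the 2 motifs have no overlap. GTAAACA was in none of the 6 windows, and 3.17% of 32851 promoters of the same length hold it. TGANTCA was in that of Cd80 alone, where it begins 42 bases before the start (capitals), and 6.75% of promoters hold it. A match is a description of the letters, and no match says nothing of sites elsewhere in a gene.
Ctla4, chr1:60908775-60909024, plus strand: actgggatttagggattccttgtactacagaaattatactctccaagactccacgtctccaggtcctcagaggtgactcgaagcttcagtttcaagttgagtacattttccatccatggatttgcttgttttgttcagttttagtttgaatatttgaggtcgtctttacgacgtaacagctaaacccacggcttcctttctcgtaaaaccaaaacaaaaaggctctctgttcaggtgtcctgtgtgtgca
Pdcd1, chr1:94052554-94052803, minus strand: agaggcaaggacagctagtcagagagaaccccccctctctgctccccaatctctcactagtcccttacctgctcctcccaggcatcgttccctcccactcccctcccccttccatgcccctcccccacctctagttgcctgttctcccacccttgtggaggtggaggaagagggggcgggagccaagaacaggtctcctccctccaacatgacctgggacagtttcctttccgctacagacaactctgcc
Cd80, chr16:38458683-38458932, plus strand, AP-1 motif in capitals: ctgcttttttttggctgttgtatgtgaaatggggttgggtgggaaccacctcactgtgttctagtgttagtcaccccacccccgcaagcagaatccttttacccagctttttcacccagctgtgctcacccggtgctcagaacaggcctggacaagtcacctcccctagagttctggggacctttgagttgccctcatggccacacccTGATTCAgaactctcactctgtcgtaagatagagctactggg

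Among the ligands, both PD-L2 and CD86 transcripts were higher in Foxo1TKO libraries. Pdcd1lg2 (ENSMUSG00000016498, GRCm38 chromosome 19, 29410919 to 29471161, plus strand) had 592, 683 and 511 normalized counts in Foxo1TKO and 109, 170.4 and 98.8 in Foxo1Ctrl libraries. The libraries of the genotypes were well separated, and the rise was 4.7-fold (log2 2.23, standard error 0.26, adjusted p = 0.000995 by edgeR). Cd86 (ENSMUSG00000022901, chromosome 16, 36603869 to 36666081, minus strand) had 527, 617 and 552 normalized counts in Foxo1TKO and 238, 358 and 235 in Foxo1Ctrl libraries. Replicate 2 was the highest of the controls and still lay below every Foxo1TKO library. The rise of 2.04-fold (log2 1.03, standard error 0.22) had an adjusted p of 0.0123 by edgeR, and 3 of the 6 fits with 1 library left out missed the threshold, at 0.0636 without Foxo1TKO replicate 2, 0.0578 without Foxo1Ctrl replicate 1 and 0.0507 without Foxo1Ctrl replicate 3. Of the 10 B cell markers tested, 5 were lower in Foxo1TKO libraries and none was called higher. The markers of dendritic cells and macrophages summed to 7.46 to 8.45 TPM in Foxo1TKO and 4.64 to 7.61 TPM in Foxo1Ctrl libraries. Pdcd1lg2 alone had 21.21 to 30.22 TPM in Foxo1TKO and 4.49 to 6.49 TPM in Foxo1Ctrl libraries. For Cd86 these were 15.22 to 18.75 TPM and 7.94 to 10.45 TPM. The macrophage marker Cd68 had 69.5 ± 12.5 against 41.2 ± 5.48 normalized counts (SD, n = 3), without overlap but not called (log2 0.74, adjusted p = 0.099 by edgeR). Itgam of the same list went the other way, with 14.3 ± 1.61 against 32.3 ± 22.7. It too did not overlap and was not called (log2 −1.11, adjusted p = 0.16 by edgeR). Zbtb46 (log2 −0.48) and Xcr1 (0.44) overlapped and were not called. Of the MHC class II genes, Cd74 was called higher and H2-Aa, H2-Ab1 and H2-Eb1 were called lower. The part of splenocytes in the rises of Pdcd1lg2 and Cd86 was not tested.

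Cd80 (ENSMUSG00000075122, GRCm38 chromosome 16, 38455561 to 38496335, plus strand) was the only ligand called lower. It was rare, with 8, 29 and 13 counts before scaling in the Foxo1TKO libraries and 40, 72 and 43 in the Foxo1Ctrl libraries. Normalized counts were 6.76, 25.4 and 14 against 47.7, 82.3 and 41.7, without overlap. The fall was 3.55-fold (log2 −1.83, standard error 0.51, adjusted p = 0.0351 by edgeR). This call was lost in 5 of the 6 fits with 1 library left out, with adjusted p-values of 0.0706 and 0.0892 without Foxo1TKO replicates 1 and 3 and of 0.0688, 0.0829 and 0.0559 without Foxo1Ctrl replicates 1, 2 and 3, while without Foxo1TKO replicate 2 it was 0.0330. B cells express Cd80, and 5 of their 10 markers tested fell too, among them Ms4a1 (CD20, 24.1 ± 7.78 against 114 ± 4.93 normalized counts, SD, n = 3) and Cd79b, a subunit of the B cell receptor (59.0 ± 16 against 227 ± 48.3). Within the controls, the library with most Cd80, replicate 2, had the least summed B cell markers, at 525.9 TPM against 868.1 and 1049 TPM, but most of this sum was Ighm, with 497 TPM in replicate 2. Cd79b and Ms4a1 were both highest in that replicate, with 279 and 120.1 normalized counts against 184 and 218 and against 111 and 112. The part of B cells in the level of Cd80 was not tested.

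Cd274, the other PD-1 ligand, did not pass the test. It lies at GRCm38 chromosome 19, 29367455 to 29388095, plus strand (ENSMUSG00000016496), and had 359, 282 and 217 normalized counts in Foxo1TKO and 492, 261 and 413 in Foxo1Ctrl libraries. The ranges overlapped through Foxo1Ctrl replicate 2 (log2 −0.44, standard error 0.29, adjusted p = 0.316 by edgeR). Its counts carry an uncertainty that those of the other 8 members do not, since it alone shared stretches of 50 bases with transcripts of other genes (214 of them) and alone had expected counts that were not whole. An antisense gene (Gm36043) also overlaps its exons, and the sources used here do not say whether counting took strand into account. Gm36043 had 20.3 ± 2.42 normalized counts in Foxo1TKO and 34.7 ± 11.8 in Foxo1Ctrl libraries (SD, n = 3) and was not called.

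**Figure D2:**
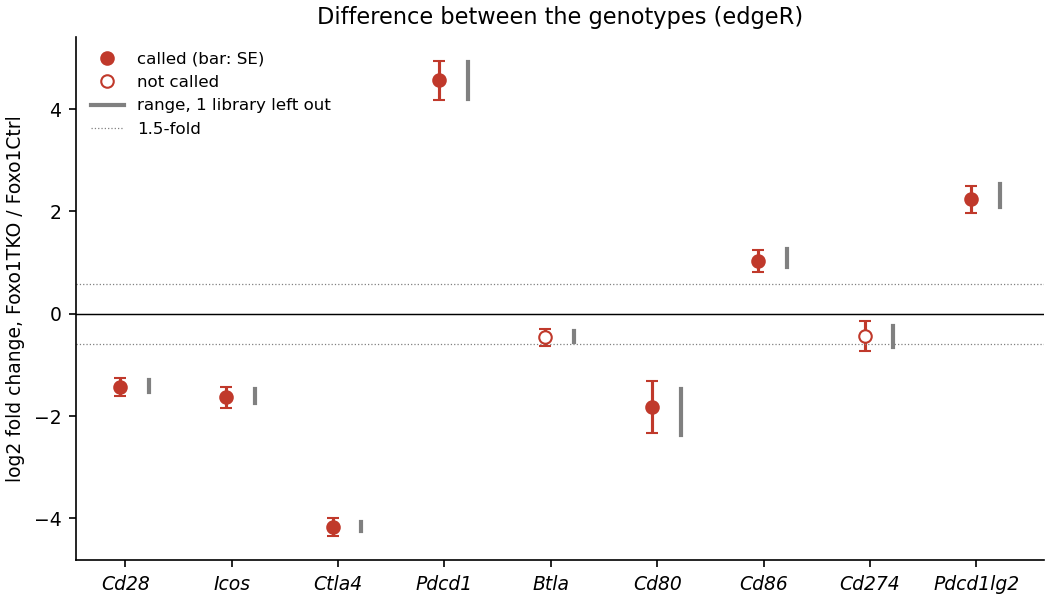
Log2 fold change of each member, Foxo1TKO over Foxo1Ctrl libraries, from edgeR with its standard error (filled points called, open points not called), beside the range over 6 fits with 1 library left out (grey bars) and the 1.5-fold limits (dotted lines). Every range stays on 1 side of zero, from 4.20 to 4.92 for Pdcd1 and from −4.24 to −4.07 for Ctla4.

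Levels of different genes were compared in TPM. In Foxo1Ctrl libraries the order was Cd28 (287.6 ± 18.2 TPM, SD, n = 3), Ctla4 (204.7 ± 23.4), Icos (137.4 ± 8.89) and Btla (36.5 ± 2.44), each separated from the next. Cd86 (8.80 ± 1.43), Cd274 (7.38 ± 2.81), Pdcd1 (6.82 ± 3.07) and Pdcd1lg2 (5.31 ± 1.05) followed with ranges that overlapped from one to the next, and Cd80 was last (1.42 ± 0.42). In Foxo1TKO libraries Pdcd1 led (169.6 ± 80.1 TPM), though its range touched that of Cd28 (109.3 ± 5.81). Icos (45.6 ± 7.15) came next, followed by Btla (28.1 ± 2.75) and Pdcd1lg2 (26.8 ± 4.89), which overlapped, then Cd86 (17.2 ± 1.80), Ctla4 (11.8 ± 2.33), Cd274 (5.59 ± 1.88) and Cd80 (0.42 ± 0.21). Pdcd1 thus ranked 7 among the members in Foxo1Ctrl and 1 in Foxo1TKO libraries, and Ctla4 ranked 2 and 7.

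The 5 receptors summed to 671, 666 and 682 TPM in Foxo1Ctrl libraries and to 446, 334 and 313 TPM in Foxo1TKO libraries. Pdcd1 made up 1.01% ± 0.44 of this sum in Foxo1Ctrl (SD, n = 3) and 45.0% ± 11.9 in Foxo1TKO libraries, with 58.6%, 39.7% and 36.7% in replicates 1, 2 and 3. The share of Ctla4 was 30.4% ± 3.50 in Foxo1Ctrl and 3.24% ± 0.46 in Foxo1TKO libraries, that of Cd28 42.7% ± 2.56 and 30.8% ± 6.68, and that of Icos 20.4% ± 1.45 and 12.9% ± 3.61. The 4 ligands summed to 23.9, 23.1 and 21.7 TPM in Foxo1Ctrl and to 54.6, 55.0 and 40.6 TPM in Foxo1TKO libraries. Cd86 held 38.4% ± 6.08 of the ligand sum in Foxo1Ctrl and 34.7% ± 2.64 in Foxo1TKO libraries, ranges that overlapped. Pdcd1lg2 held 23.2% ± 4.26 and 53.5% ± 1.37, Cd274 32.2% ± 12 and 11% ± 2.49, and Cd80 6.18% ± 1.77 and 0.83% ± 0.33.

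**Figure D3:**
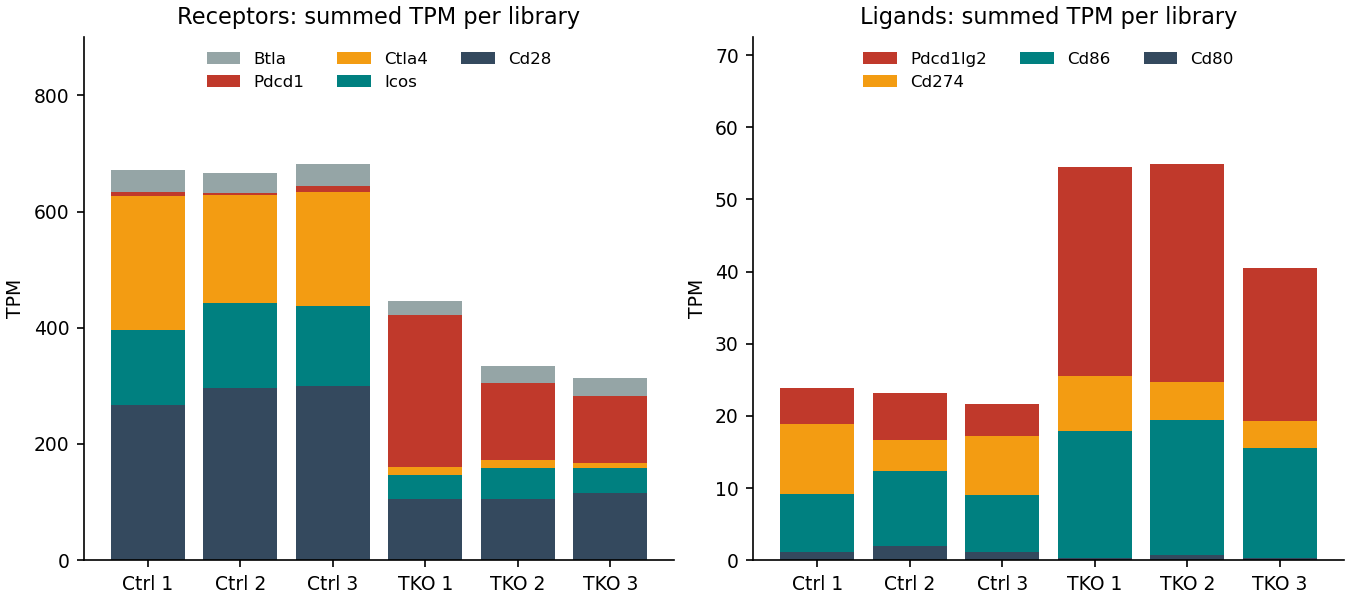
Summed TPM of the 5 receptors (left) and the 4 ligands (right) in each library, with Ctrl and TKO standing for Foxo1Ctrl and Foxo1TKO and each segment the TPM of 1 member. The receptor sum is 313 to 446 TPM in Foxo1TKO against 666 to 682 TPM in Foxo1Ctrl libraries, with a wide segment of Pdcd1 in the former and of Ctla4 in the latter, and the ligand sum is 40.6 to 55.0 against 21.7 to 23.9 TPM.

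Ratios within a library do not depend on how much was sequenced, so 5 ratios of TPM were compared by exact two-sided permutation tests, for which 3 libraries against 3 cannot give a p under 0.1. The ratio of Ctla4 to Cd28, which compete for the same ligands, was 0.865, 0.629 and 0.657 in Foxo1Ctrl and 0.128, 0.119 and 0.0786 in Foxo1TKO libraries. These did not overlap (exact permutation p = 0.1, 0.125 after Benjamini-Hochberg adjustment over the 5 ratios), with a difference of −2.74 on the log2 scale. That of Icos to Cd28, both costimulatory, was 0.484, 0.497 and 0.454 in Foxo1Ctrl and 0.378, 0.508 and 0.370 in Foxo1TKO libraries, and these overlapped (exact permutation p = 0.4, adjusted 0.4). The ratio of the inhibitory receptors Pdcd1 and Ctla4 was 0.0272, 0.0219 and 0.0513 in Foxo1Ctrl and 19.3, 10.5 and 12.6 in Foxo1TKO libraries. The PD-1 ligands Pdcd1lg2 and Cd274 had ratios of 0.508, 1.52 and 0.552 in Foxo1Ctrl and of 3.82, 5.66 and 5.51 in Foxo1TKO libraries. For the CD28 and CTLA-4 ligands Cd86 and Cd80 these were 6.67, 5.50 and 6.90 against 56.9, 28.4 and 52.5. None of these last 3 ratios overlapped between the genotypes, each with an exact permutation p of 0.1 (adjusted 0.125).

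**Figure D4:**
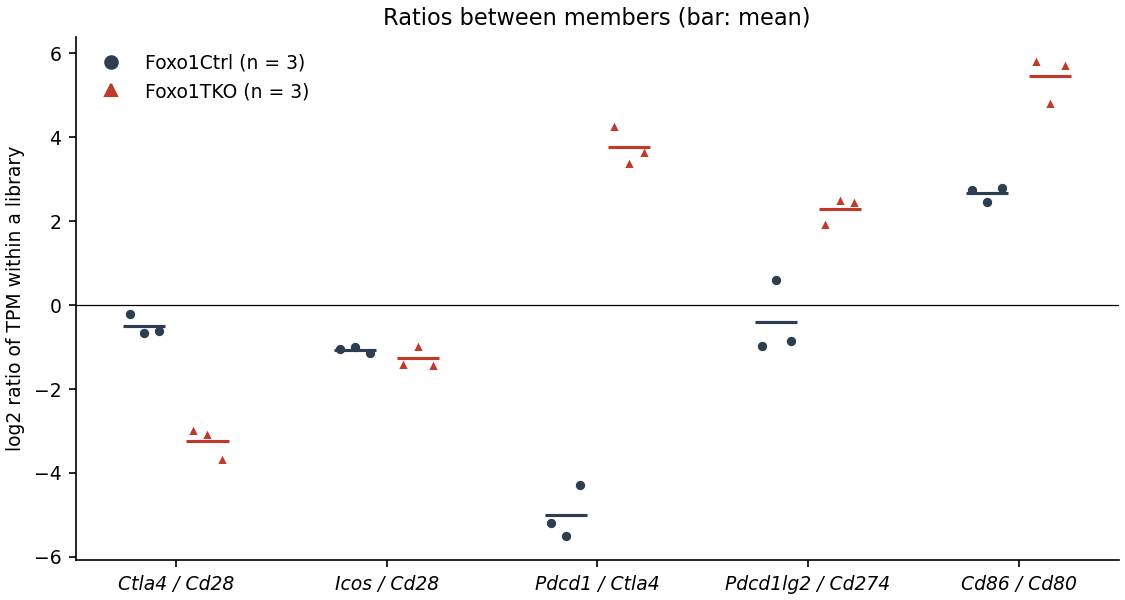
Log2 ratio of the TPM of 2 members within each library (Foxo1Ctrl circles, Foxo1TKO triangles, n = 3 each), with the mean as a bar and a line at equal levels. The genotypes overlap for Icos to Cd28 alone, and Pdcd1 to Ctla4 goes from −5.00 on average in Foxo1Ctrl to 3.77 in Foxo1TKO libraries.

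RSEM also gives a mean transcript length per gene, weighted by the share of each isoform, which the choice of members did not use. Over 10933 genes with more than 1 transcript, the lengths of the genotypes did not overlap for 13%. Among the 7 members with more than 1 transcript they did not overlap for Cd28, Ctla4 and Cd86, each with an exact permutation p of 0.1, the smallest possible, and 0.233 after adjustment over the 7. For Cd86 the length was 2348, 2324 and 2396 bases in Foxo1TKO and 2201, 2104 and 2183 bases in Foxo1Ctrl libraries. The only coding transcript of Cd86 in GENCODE M21 has 2539 bases and is the longest, so the shorter processed transcripts made up at least 7.17% and at most 13.7% of its molecules in Foxo1TKO libraries, and at least 17.0% and at most 27.8% in Foxo1Ctrl libraries. With the effective lengths taken into the fit, the rise of Cd86 was 0.89 on the log2 scale. The length of Ctla4 was 1933 bases, that of its longest transcript, in all 3 Foxo1TKO libraries and 1926 to 1929 bases in Foxo1Ctrl libraries, where shorter transcripts reached at most 0.526%. Before scaling, Ctla4 had 389, 386 and 244 counts in Foxo1TKO and 4996, 5057 and 5278 in Foxo1Ctrl libraries. A share this small could go unseen at the Foxo1TKO counts, so the lack of overlap for Ctla4 cannot show a change in isoforms. Cd28 had 3991 to 4032 bases in Foxo1TKO and 3908 to 3982 bases in Foxo1Ctrl libraries. Icos, with 2 transcripts, had 35.7% to 43.9% of the shorter one in Foxo1TKO and 39.9% to 41.9% in Foxo1Ctrl libraries.

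Several members are neighbours in the genome, and the genes tested within 250 kb of a member were set beside them. Cd28, Ctla4 and Icos lie in this order on chromosome 1, with starts 170.2 and 90.9 kb apart, and all 3 were lower in Foxo1TKO libraries. Between Cd28 and Ctla4 the non-coding genes Gm37198 (log2 −1.81, adjusted p = 0.00178 by edgeR) and Gm11579 (log2 −0.87, adjusted p = 0.0219) were lower too. These 2 overlap on opposite strands and cannot be told apart if strand was not used in counting. The pseudogene Eif4a-ps4 on the far side of Cd28 was higher (log2 0.82, adjusted p = 0.014). Rpl18-ps1, a pseudogene inside Ctla4, was not called (log2 −0.14), and neither were Raph1 (−0.74) and Abi2 (0.28) beyond Cd28. Pdcd1lg2 starts 43.5 kb from Cd274, yet only the former was called. Of the other genes around this pair, Rcl1 was higher (log2 2.04, adjusted p = 0.000274) and Jak2, Insl6, Plgrkt, Ric1 and Ermp1 were not called. The 5 neighbours of Pdcd1 were not called and ranged from −0.15 to 1.66 on the log2 scale. Near the members on chromosome 16, Cd200 (log2 1.78) was higher and Slc35a5 (−0.80) lower beside Btla, Arhgap31 (−2.0) was lower beside Cd80, and Ildr1 (2.49) and Iqcb1 (0.88) were higher beside Cd86. In all, 37 neighbours were tested, of which 5 were higher and 4 lower in Foxo1TKO libraries, against 11.1% and 11.8% of all genes, and their median log2 fold change was −0.09.

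**Figure D5:**
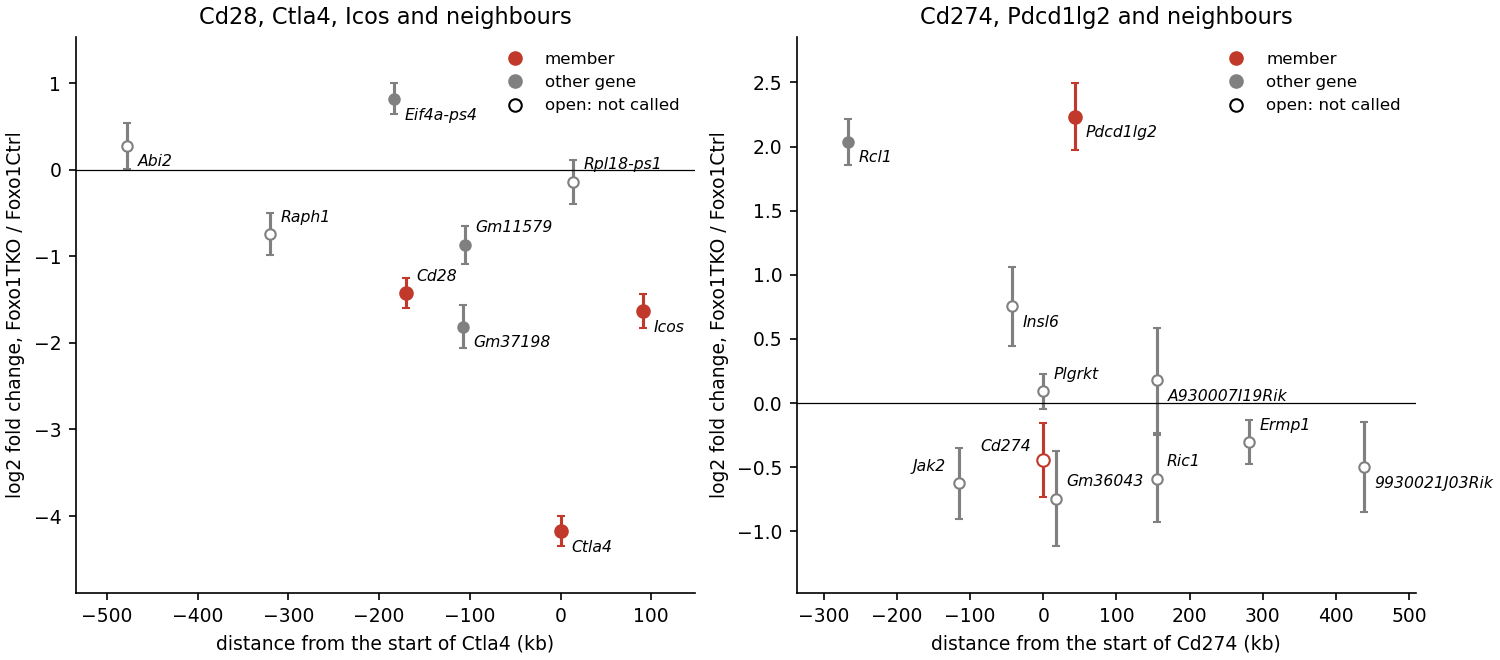
Log2 fold change with its standard error (edgeR) of genes within 250 kb of Cd28, Ctla4 or Icos (left) and of Cd274 or Pdcd1lg2 (right), by distance in kb from the start of Ctla4 or of Cd274. Members are red and other genes grey, filled when called. The 3 receptors lie between −4.18 and −1.43, whereas Pdcd1lg2 (2.23) stands above its neighbour Cd274 (−0.44).

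Other B7 family members and counter-receptors of the family were taken from a fixed list of 10, of which 5 were tested. Of these, 2 were higher and 1 was lower (median log2 fold change −0.83), against 11.1% and 11.8% of all genes. Both that rose bind HVEM, the partner of BTLA. Tnfsf14, which encodes LIGHT, had 892, 787 and 715 normalized counts in Foxo1TKO and 54.8, 52.6 and 69.8 in Foxo1Ctrl libraries (log2 3.73, standard error 0.21, adjusted p = 5.09e-05 by edgeR). Cd160, a receptor found on cytotoxic lymphocytes, had 7251, 5875 and 4868 against 333, 456 and 592 (log2 3.70, standard error 0.27, adjusted p = 0.00013). Vsir, which encodes the inhibitory protein VISTA, had 778, 439 and 364 against 1852, 682 and 1473, ranges that overlapped (log2 −1.34, adjusted p = 0.0482). The number called in this list ran from 2 to 4 with 1 library left out and from 2 to 3 in the other settings. Cd276, Vtcn1 and Ildr2 were at or under 3 counts in every library.

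Of 17 genes that carry the signal below CD28 and ICOS, 3 were lower and 1 was higher in Foxo1TKO libraries, and the median log2 fold change was −0.11. These 4 of 17 lie near the 23.0% of all genes called, so the count is no result about the list. Pik3cd, the catalytic p110 delta subunit of phosphoinositide 3-kinase in lymphocytes, had 827, 724 and 683 normalized counts in Foxo1TKO and 2795, 1738 and 2454 in Foxo1Ctrl libraries (log2 −1.64, adjusted p = 0.0013 by edgeR). Pik3r1, its regulatory subunit, was the member that rose (log2 0.64, adjusted p = 0.026). The adaptor Grap2 (log2 −1.14, adjusted p = 0.0037) and the kinase Prkcq, or PKC theta (log2 −0.97, adjusted p = 0.00552), were lower. Of 10 phosphatases and ubiquitin ligases below the inhibitory receptors, Ptpn6, the phosphatase SHP-1, was higher, with 8114, 6437 and 5736 normalized counts in Foxo1TKO and 3249, 2272 and 3695 in Foxo1Ctrl libraries (log2 1.14, adjusted p = 0.00859). Cblb, a ligase that restrains T cell activation, was lower (log2 −1.05, adjusted p = 0.0188), and the median of the 10 was 0.04. These 2 of 10 are no larger a share than the 23.0% of all genes. Only 1 of these 10 was called without Foxo1TKO replicate 2, Foxo1TKO replicate 3 or Foxo1Ctrl replicate 1, or with limma on TPM. None of 14 genes for the traffic, surface stability or mRNA turnover of the members was called by edgeR, with 4 at an unadjusted p under 0.05, a median log2 fold change of −0.40 and 1 call by DESeq2.

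Transcription factors known at the Pdcd1 gene moved in both directions. Of 8 listed, 4 were higher and 3 lower in Foxo1TKO libraries, against 11.1% and 11.8% of all genes. Their median log2 fold change was 0.57, against 0.01 for all genes. The list was chosen with earlier results of these data known, so its count is no independent result. Tox, a factor of the exhausted state, had 7416, 7696 and 9152 normalized counts in Foxo1TKO and 2035, 2025 and 2903 in Foxo1Ctrl libraries (log2 1.80, standard error 0.19, adjusted p = 0.000671 by edgeR). Nr4a1, an early gene of antigen receptor signalling, had 9128, 2768 and 2183 against 738, 158 and 1384 (log2 2.62, standard error 0.80, adjusted p = 0.049). Foxo1TKO replicate 1 was the highest library for Nr4a1 as it was for Pdcd1. Fos (log2 1.51, adjusted p = 0.013) and Nfatc1 (log2 0.64, adjusted p = 0.0192) were higher as well. Prdm1, which encodes the repressor Blimp-1, had 5.92, 0.877 and 2.15 normalized counts in Foxo1TKO and 82.3, 64.0 and 56.2 in Foxo1Ctrl libraries (log2 −4.08, standard error 0.52, adjusted p = 0.00143). Batf (log2 −1.25, adjusted p = 0.00206) and Notch1 (log2 −1.10, adjusted p = 0.015) were lower. Without Foxo1TKO replicate 2, without Foxo1Ctrl replicate 1 or with limma on TPM, 4 of the 8 were called.

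CTLA-4 and ICOS are also high in regulatory T cells, which the sort had set aside. Of 8 markers of these cells, Gpr83 and Nrp1 were lower in Foxo1TKO libraries and none was higher, against 11.8% and 11.1% of all genes. Foxp3, which defines them, had 10.1, 14.9 and 6.44 normalized counts in Foxo1TKO and 15.5, 27.4 and 20.3 in Foxo1Ctrl libraries, without overlap (log2 −0.93, standard error 0.44, adjusted p = 0.165 by edgeR). The summed markers were 1117 to 1421 TPM in Foxo1TKO and 1007 to 1188 TPM in Foxo1Ctrl libraries, and most of it was Tnfrsf18 (GITR), with 919 to 1222 and 779 to 953 TPM. Foxp3, Gpr83 and Nrp1 each lay lower in Foxo1TKO libraries without overlap. These 3 of 8 are no larger a share than the 42.7% of all genes without overlap. Il2ra (log2 −0.02), Ikzf4 (−0.05), Capg (−0.34), Itgae (0.06) and Tnfrsf18 (0.30) were not called. The part of regulatory T cells in the levels of Ctla4 and Icos was not tested. Of 5 MHC class II genes, which antigen-presenting cells express together with Cd80 and Cd86, H2-Aa, H2-Ab1 and H2-Eb1 were lower and Cd74 was higher in Foxo1TKO libraries. H2-Ab1 had 351 ± 112 normalized counts in Foxo1TKO and 1637 ± 111 in Foxo1Ctrl libraries (SD, n = 3), and Cd74 14018 ± 4052 and 7035 ± 1031. Their part in the levels of the ligands was not tested.

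For each member called, the 2 genes whose pattern over the 6 libraries was nearest were sought among those averaging 100 normalized counts or more, by the root mean square difference of centred log2 values. For Cd28 these were Smc4 and Cd53, at differences of 0.09 and 0.10. For Icos they were Ms4a6b and Mxi1 (0.05 and 0.07), for Ctla4 Sdcbp2 and Slfn1 (0.18 and 0.19) and for Pdcd1 Slc16a6 and Nr4a2 (0.32 and 0.33). For Cd86 they were Timm10 and Rfc3 (0.07 and 0.09) and for Pdcd1lg2 Pbk and Srgap3 (0.16 and 0.21). For Cd80 they were Igkc and Jchain, genes of the antibody light chain and joining chain made by B lineage cells (0.23 and 0.27). With 6 libraries in 2 genotypes, likeness rests mostly on the size of the difference between the genotypes.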

How the data were processed

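RNA of 6 cultures was analysed, 3 Foxo1TKO and 3 Foxo1Ctrl, with groups taken from sample titles and genotypes. The authors used STAR 2.7.6a for alignment (GRCm38, Ensembl) and RSEM 1.3.1 for counting, and deposited expected counts (not normalized), TPM and mean and effective transcript lengths per gene, all of which were used here. The authors also deposited a normalized signal table, made with DESeq2 size factors, which named the members and served in an alternative fit. Use of strand and trimming are not given in the sources used here. The labels give 50000 T cells per culture, and the methods another number.

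Expected counts were rounded to whole numbers. Of all genes, the 13691 with 10 counts or more in 3 libraries or more were tested with edgeR 4.0.16 in R 4.3.3 (TMM, glmQLFit and glmQLFTest, prior count 1, genotype as the only term). The library totals ran from 14783890 to 19675447. Normalized counts were scaled to the mean effective library size. Genes near 0 were judged against 3 counts, which covers counting error only. Ratios and lengths were compared by exact permutation tests in scipy 1.17.1, and figures were drawn with matplotlib 3.10.9. Positions and transcripts are those of GENCODE M21 on GRCm38, an earlier release than the authors used. The genes named are the members, Foxo1, called genes of the lists, genes within 250 kb of a member, the 2 nearest profiles of each called member and cell type markers. The members and lists were chosen with earlier results of these data known. Alternatives were DESeq2 1.42.0, limma-voom (limma 3.58.1), other scalings, filters, offsets for effective length, the normalized table with a pseudocount of 1, TPM with a pseudocount of 0.1, a replicate block and each library left out.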

Additional observations from a re-analysis of the deposited data

How the results depend on the processing

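The number of genes called was 3144 and ran from 2929 (TPM with limma) to 3694 (DESeq2) over 10 other settings, all of which called 7 members in the same directions as edgeR did. Leaving out 1 library at a time gave 1854 (without Foxo1TKO replicate 2) to 3321 calls, and 2031 without Foxo1Ctrl replicate 1, with 5 or 6 members called. Cd28, Icos, Ctla4, Pdcd1 and Pdcd1lg2 were called in every fit. Log2 fold changes over the fits with 1 library left out were −2.38 to −1.47 for Cd80 and 0.92 to 1.265 for Cd86, whose calls were lost in 5 and 3 of 6 fits. The called members of the 5 pathway lists (5, 17, 10, 14 and 8 genes tested) numbered 16, while 23.0% of all genes were called. Of the 16, 7 were transcription factors known at Pdcd1. The number ran from 10 to 16 with 1 library left out and from 11 to 18 in the other settings. The difference in mean transcript length of Icos reversed from 27.8 to −22.3 bases without Foxo1TKO replicate 3 (range −22.3 to 76.8), and that of Cd80 from −166 to 221 bases without Foxo1TKO replicate 1 (range −483 to 221). The cause of these changes was not tested. Same-numbered libraries of the genotypes correlated at 0.43, 0.20 and −0.11 in their deviations from the group means, and not every library correlated best with its own number. With 3 libraries per genotype this cannot settle whether same-numbered cultures were set up together. The labels give a number only, while the paper tested such cultures as pairs in flow cytometry. With the replicate number as a block, 3318 genes and 7 members were called, and no call of a member changed. Cd80 had as few as 8 counts in a library, which limits the precision of its values.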
